A study of Mus musculus with 16 samples.

Results

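The 34 genes described here encode lysosomal enzymes, lysosomal membrane proteins, proton pump components and Tfeb, a transcription factor for lysosomal genes. They were chosen by name as cathepsins, lysosomal hydrolases, membrane proteins and Tfeb, all 34 had a row among the 23258 genes measured, and all 34 passed the filter on low counts that left 16830 genes for testing. RNA was sequenced from whole snap-frozen livers of C57BL/6 mice in 16 libraries: 5 from miR-33 liver knockout mice on a high-fat diet (HFD), 4 from wild-type mice on HFD, 4 from knockout mice on chow and 3 from wild-type mice on chow. The knockout is liver-specific per the labels, and the name of the deposited table gives Alb-Cre, a Cre recombinase under the albumin promoter, which acts mainly in hepatocytes so other cells of the liver may keep miR-33. All animals shared the C57BL/6 background, and no source used here gives age, sex, time on diet or sequencing batch. Whether the libraries of a group came from separate animals is not stated, and p-values then cover the spread between libraries alone, part of which may be technical.

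Lysosomes break down proteins, glycans, lipids and whole organelles with acid hydrolases, most of which reach them through the mannose 6-phosphate pathway, and a vacuolar proton pump keeps their interior acidic. In the liver this machinery releases cholesterol and fatty acids from lipoproteins and, through autophagy, from lipid droplets, and resident macrophages (Kupffer cells) are especially rich in it. Tfeb is known to bind a palindromic motif, the CLEAR element, in promoters of many of these genes. The microRNA miR-33, whose gene lies in an intron of Srebf2, is known to repress cholesterol transporters and, in macrophages, genes of autophagy and lysosomal function.

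The sequences below show what the microRNA could pair with and where the Tfeb-type motif stands, because the diet and knockout comparisons bear on both. The first line is mature mmu-miR-33-5p (chr15:82198127-82198147, plus strand; RefSeq, GRCm38.p6), with the seed, bases 2 to 8, in capitals. The second line is the 1 stretch in the members' longest annotated 3′ UTRs that holds the seed's complement CAATGCA, shown in capitals; it lies in an alternative transcript of Ctsc at chr7:88290844-88290873 (plus strand, mm10).

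mmu-miR-33-5p: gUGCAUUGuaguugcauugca

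Ctsc site: ttcaaaccaatataCAATGCAtcacttttc

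Such a site stood in the longest 3′ UTR of 1 of 34 members (2.94%), against 1483 of 20896 annotated genes with a 3′ UTR (7.10%). UTR lengths differ between genes, and this share was not adjusted for them. Ctsc encodes a dipeptidyl peptidase that activates serine proteases of immune cells, and on HFD it averaged 87.99 ± 4.13 CPM (reads scaled to library size by TMM) in 5 knockout livers and 83.05 ± 6.34 CPM in 4 wild-type livers (SD). These levels are of the whole gene, and the alternative transcript that holds the site was not measured separately.

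For promoters, RefSeq windows from 250 bases before to 50 bases after the annotated start were available for 32 members, in 38 windows. GTCACGTG, the core shared by many CLEAR elements, was searched on both strands, where it reads CACGTGAC on the other strand, and contains the shorter E-box CACGTG. It stood in windows of 10 of 32 members (31.3%), against 689 of 27025 genes (2.55%). These 10 were Atp6v0d1, Cln3, Ctsa, Ctsd, Gla, Glb1, Lamp1, Lgmn, Mcoln1 and Naglu. The E-box, within the longer motif or without it, stood in windows of 13 members (40.6%), these 10 included, against 8.09% of all genes. The palindrome TCACGTGA stood in those of 6 members (18.8%), against 1.13% of all genes. The CLEAR element is known from promoters of many of these genes, so these shares only describe the list and were not tested. The 6 stretches below, 60 bases each on the gene's own strand (RefSeq, GRCm38.p6), show the motif in capitals for Lamp1 and Lgmn, the 2 holders whose level changed with diet, and for Ctsd, Mcoln1, Naglu and Gla, whose level did not pass the test.

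Lamp1, chr8:13159101-13159160, plus strand: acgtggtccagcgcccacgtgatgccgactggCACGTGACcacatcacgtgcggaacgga

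Lgmn, chr12:102439110-102439169, minus strand: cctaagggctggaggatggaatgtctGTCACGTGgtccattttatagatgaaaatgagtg

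Ctsd, chr7:142387892-142387951, minus strand: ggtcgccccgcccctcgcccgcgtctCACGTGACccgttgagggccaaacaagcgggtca

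Mcoln1, chr8:3500420-3500479, plus strand: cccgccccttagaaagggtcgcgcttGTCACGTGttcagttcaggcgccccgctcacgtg

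Naglu, chr11:101069993-101070052, plus strand: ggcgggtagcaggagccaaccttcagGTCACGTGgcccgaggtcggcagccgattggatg

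Gla, chrX:134601168-134601227, minus strand: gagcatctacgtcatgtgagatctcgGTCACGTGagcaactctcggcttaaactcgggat

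A match is a run of letters and not a measured binding site. The Lgmn match lies in the window of a RefSeq start inside the limits of the gene given below. Another Lgmn window, nearer the annotated start of the gene (chr12:102439679-102439978), held neither this motif nor the E-box. Ctsa and Cln3 also had a further window, upstream of the one with the match, that held neither. These were chr2:164832622-164832921 for Ctsa and chr7:126585768-126586067 for Cln3. Ctsb and Ctsh had no window to search.

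Estimated counts per library totalled 20993930 to 29469645 in knockout livers on HFD, 16149911 to 25823475 in wild-type livers on HFD, 15888436 to 26821573 in knockout livers on chow and 17502937 to 22902669 in wild-type livers on chow. Defining hepatocyte markers were present in every library, 11 of them summing to between 68870 and 107200 CPM. Library 1 of the knockout livers on HFD stood apart on the third principal component of all genes (50.2, against -19.1 to 13.7 for the others) and library 3 of the wild-type livers on chow on the second (-48.8, against -16.8 to 27.02). A single ribosomal RNA gene took 0.637% to 12.3% of counts in knockout livers on HFD and 1.36% to 10.3% in wild-type livers on HFD, against 11.3% to 14.6% in knockout livers on chow and 2.54% to 13.3% in wild-type livers on chow. Its part in the diet results was not tested. The level of miR-33 was not measured here and the deletion was not checked.

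The summed level of the 34 genes was 4801 ± 213 CPM in knockout livers on HFD (SD, n = 5) and 4516 ± 109 CPM in knockout livers on chow (n = 4). In wild-type livers it was 4879 ± 232 CPM on HFD (n = 4) and 4379 ± 101 CPM on chow (n = 3). The 6 genes Lamp1, Ctsb, Ctsl, Psap, Lamp2 and Ctsd took between 62.0% and 64.6% of that sum in every library, longer transcripts giving more reads. Per kb of exon sequence, Lamp1, the main glycoprotein of the lysosomal membrane, had the highest level of the 34 in HFD wild-type livers at 310.1 CPM per kb, well above the next gene, the carboxypeptidase Ctsz at 145 CPM per kb. Then came Ctsd at 143, Psap at 136 and Ctsb at 119 CPM per kb. Ctsk at 1.35, Cln3 at 0.934 and Tfeb at 0.832 CPM per kb stood last in that order. Within groups the members were tight, with a median coefficient of variation of 7.25% in knockout livers on HFD, 9.57% in wild-type livers on HFD, 8.11% in knockout livers on chow and 9.93% in wild-type livers on chow.

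High-fat feeding was compared with chow within each genotype, which asks how the lysosomal genes respond to diet in miR-33 liver knockout and in wild-type mice. A few members changed by a large amount and most by little. In knockout livers 12 members were higher and 5 lower on HFD than on chow at an adjusted p under 0.05 (edgeR's quasi-likelihood test with Benjamini-Hochberg adjustment over all genes), where 17.4% of all genes tested were higher and 16.2% lower. In wild-type livers 9 were higher and 4 lower, where 15.2% of all genes were higher and 14.2% lower. Higher members were thus 35.3% of the 34 in knockout and 26.5% in wild-type livers, above the share of all genes. Lower members were 14.7% and 11.8%, a little under the share of all genes that were lower. These shares were not tested, and the members were chosen with earlier results of these data known. The median log2 fold change of the 34 was 0.17 in knockout livers (all genes -0.01) and 0.13 in wild-type livers (all genes -0.02), the second falling to 0.0790 without library 1 of the chow wild-type livers. All 9 that were higher in wild-type livers were among the 12 of knockout livers (75.0% of these), which added Ctso, Gusb and Smpd1. For Ctso, Gusb and Smpd1 the HFD and chow libraries of knockout livers overlapped. All 4 that were lower in wild-type livers were among the 5 of knockout livers (80.0%), which added Fuca1. Across the 34 genes the log2 fold changes in knockout and in wild-type livers, which share no library, had a Pearson r of 0.94 and the same sign for 28. Genes are not independent replicates, and this is a description. Sample titles number the libraries in separate series for each diet, so diet and whatever else those series differ in cannot be told apart.

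**Figure D1:**
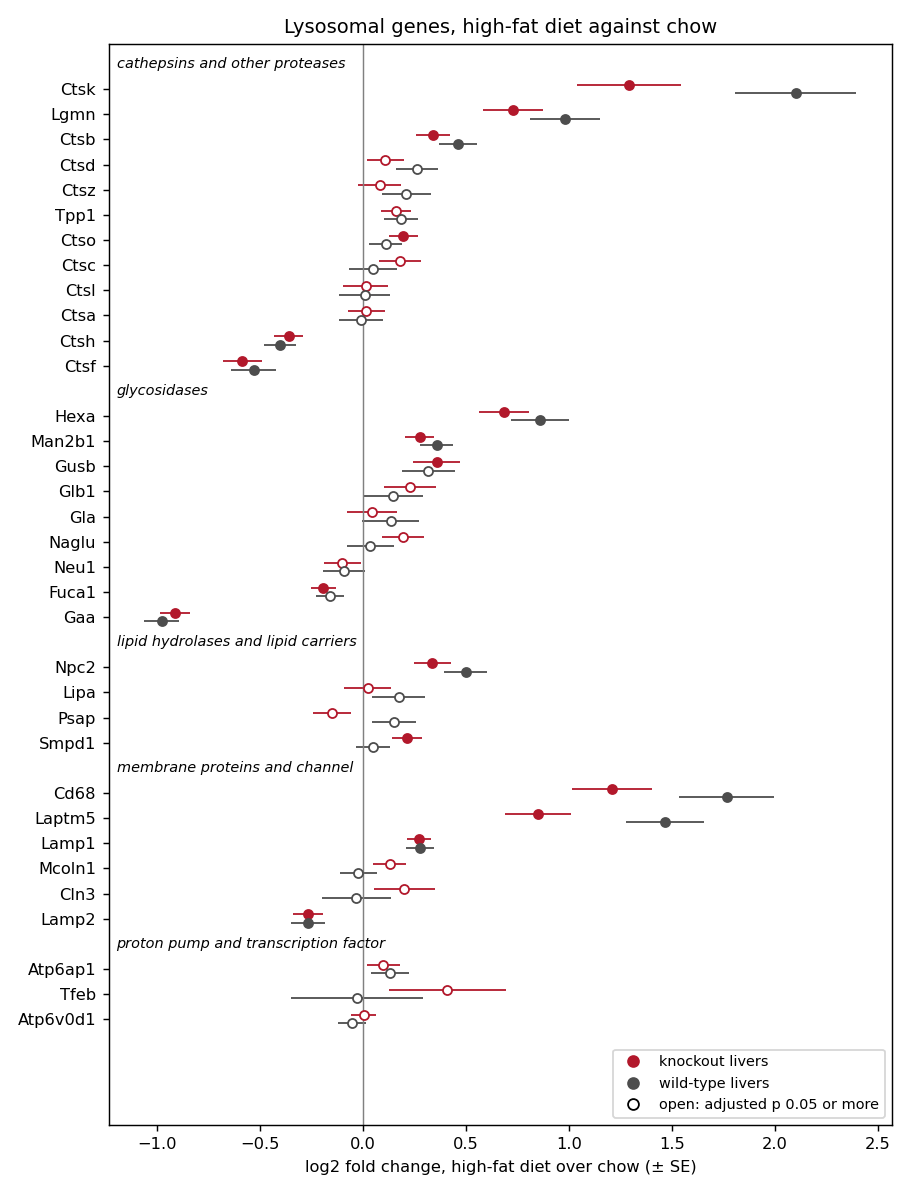
Log2 fold change of each of the 34 genes, HFD over chow, with its standard error, in knockout livers (red, upper point) and wild-type livers (grey, lower point), grouped by role; filled points passed an adjusted p of 0.05. Ctsk, Cd68, Laptm5, Lgmn and Hexa lie farthest to the right and Gaa farthest to the left in both genotypes.

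Among the 12 proteases, Ctsk, Lgmn and Ctsb were higher and Ctsf and Ctsh lower on HFD in both genotypes. Ctsk (chr3:95499256-95509362) encodes cathepsin K, a collagen-degrading cysteine protease best known from osteoclasts. In knockout livers Ctsk had 1.22, 1.40, 1.27, 1.26 and 1.52 CPM on HFD, against 0.489, 0.819, 0.425 and 0.398 CPM on chow. In wild-type livers it had 1.68, 2.47, 1.73 and 2.29 CPM on HFD, against 0.423, 0.582 and 0.414 CPM on chow. All HFD libraries lay above all chow libraries of the same genotype. The log2 fold change was 1.29 ± 0.25 in knockout livers (adjusted p = 0.000742, 2.45-fold) and 2.10 ± 0.29 in wild-type livers (adjusted p = 5.02e-05, 4.29-fold). Ctsk rested on few reads, with 6 to 19 estimated counts per library in knockout livers on chow and 7 to 10 in wild-type livers on chow. Lgmn (chr12:102394084-102439813) encodes legumain, the asparaginyl endopeptidase that processes cathepsins into their mature forms. It had 49.7, 33.8, 40.7, 46.7 and 42.1 CPM in knockout livers on HFD, against 23.96, 25.4, 24.6 and 28.6 CPM in knockout livers on chow. Wild-type livers had 35.1, 53.3, 49.6 and 51.7 CPM on HFD, against 27.6, 17.4 and 27.04 CPM on chow. The diets did not overlap in either genotype, and the log2 fold change was 0.73 ± 0.15 in knockout livers (adjusted p = 0.000999) and 0.98 ± 0.17 in wild-type livers (adjusted p = 0.000344).

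Ctsb, an abundant cysteine protease of liver, had 636, 689.5, 728, 738 and 687 CPM in knockout livers on HFD, against 558, 515, 514 and 611 CPM on chow. Wild-type livers had 668, 757, 692 and 756 CPM on HFD, against 522, 466 and 578 CPM on chow. The groups did not overlap in either genotype, although the log2 fold change was only 0.34 ± 0.08 in knockout livers (adjusted p = 0.00345) and 0.46 ± 0.09 in wild-type livers (adjusted p = 0.00115). Ctsb shares 774 bases with Fdft1 on the opposite strand, and whether counting used strand is not stated. Mean estimated counts were 15116 for Ctsb and 1533 for Fdft1. Ctsh, an aminopeptidase, moved the other way. It had 118, 139.9, 125, 128 and 137 CPM in knockout livers on HFD, against 165, 183, 154 and 164 CPM on chow. In wild-type livers the values were 133, 118, 131 and 118 CPM on HFD, against 162, 169 and 165 CPM on chow. Every HFD library was below every chow library, with a log2 fold change of -0.36 ± 0.07 in knockout livers (adjusted p = 0.000634) and -0.40 ± 0.08 in wild-type livers (adjusted p = 0.000906). Ctsf, a cysteine protease, had 17.9, 15.2, 15.2, 16.6 and 16.5 CPM in knockout livers on HFD, against 22.7, 21.3, 27.2 and 26.5 CPM on chow. Wild-type livers had 15.1, 17.1, 18.5 and 15.8 CPM on HFD, against 21.2, 25.3 and 25.7 CPM on chow. Here too the diets did not overlap, and the log2 fold change was -0.59 ± 0.10 in knockout livers (adjusted p = 0.000153) and -0.53 ± 0.11 in wild-type livers (adjusted p = 0.00136).

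Cathepsins D and L did not pass the test in either genotype. Ctsd, the main aspartyl protease of lysosomes, had 304, 319, 362, 338 and 340.0 CPM in knockout livers on HFD, against 338, 301, 277 and 318 CPM on chow. It had 294, 363, 328 and 363 CPM in wild-type livers on HFD, against 304, 242 and 296 CPM on chow. The diets overlapped in both genotypes, and the log2 fold change was 0.11 ± 0.09 in knockout livers (adjusted p = 0.364) and 0.26 ± 0.10 in wild-type livers (adjusted p = 0.0578). The wild-type value passed the threshold under DESeq2 (adjusted p = 0.0362). By edgeR it also passed without library 1 of the HFD wild-type livers (adjusted p = 0.0237), without library 1 of the HFD knockout livers (0.0373), which enters the shared spread only, and without library 1 of the chow wild-type livers (0.0477). Ctsl, a cysteine endopeptidase, had 438, 476, 458, 461 and 394 CPM in knockout livers on HFD, against 373, 392, 527 and 473 CPM on chow. It had 449.7, 452, 478 and 494 CPM in wild-type livers on HFD, against 372, 535 and 489 CPM on chow. The chow libraries spread more widely than the HFD libraries and enclosed them, and the log2 fold change was 0.01 ± 0.11 in knockout livers and 0.01 ± 0.12 in wild-type livers. Ctso, a little-studied cysteine protease, passed in knockout livers at 0.20 ± 0.07 (adjusted p = 0.0393) and had 0.11 ± 0.08 in wild-type livers. The other 4 proteases did not pass in either genotype. Their log2 fold changes in knockout and wild-type livers were 0.02 and -0.01 for Ctsa, the serine carboxypeptidase that protects Glb1 and Neu1, and 0.18 and 0.05 for Ctsc. They were 0.08 and 0.21 for Ctsz, and 0.16 and 0.18 for Tpp1, a tripeptidyl peptidase. Ctsa shares 1515 bases with Pltp on the opposite strand, and whether counting used strand is not stated, so its value is uncertain.

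Of the 9 glycosidases, Hexa and Man2b1 were higher and Gaa lower in both genotypes. Gaa (chr11:119267887-119285454) encodes acid alpha-glucosidase, which degrades glycogen in lysosomes, and had the most negative change of all 34. It had 40.4, 43.4, 36.8, 39.7 and 41.8 CPM in knockout livers on HFD, against 80.2, 79.99, 68.4 and 75.04 CPM on chow. It had 40.5, 37.1, 39.3 and 34.5 CPM in wild-type livers on HFD, against 72.5, 69.7 and 81.5 CPM on chow. The highest HFD library was far below the lowest chow library, and the log2 fold change was -0.91 ± 0.07 in knockout livers (adjusted p = 1.44e-07) and -0.98 ± 0.08 in wild-type livers (adjusted p = 4.66e-07). Hexa (chr9:59539540-59565109), the alpha subunit of beta-hexosaminidase, which degrades gangliosides, had 60.8, 66.7, 79.4, 80.99 and 78.2 CPM in knockout livers on HFD, against 44.6, 36.7, 47.9 and 53.1 CPM on chow. It had 67.4, 89.2, 77.3 and 81.1 CPM in wild-type livers on HFD, against 51.2, 36.2 and 42.7 CPM on chow. No HFD library overlapped a chow library, with a log2 fold change of 0.68 ± 0.12 in knockout livers (adjusted p = 0.00035) and 0.86 ± 0.14 in wild-type livers (adjusted p = 0.000205).

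Man2b1, the lysosomal alpha-mannosidase, had 114, 113, 119, 117 and 121 CPM in knockout livers on HFD, against 97.3, 95.4, 102 and 90.9 CPM on chow. In wild-type livers it had 101, 130.2, 116 and 121 CPM on HFD, against 93.6, 86.95 and 93.7 CPM on chow. The change was small but free of overlap, at 0.28 ± 0.07 in knockout livers (adjusted p = 0.00543) and 0.36 ± 0.08 in wild-type livers (adjusted p = 0.00259) on the log2 scale. Gusb, beta-glucuronidase, was higher in knockout livers (0.36 ± 0.11, adjusted p = 0.0219) and had a like value in wild-type livers (0.32 ± 0.13, adjusted p = 0.0754) that missed the threshold. Fuca1, alpha-fucosidase, was lower in knockout livers (-0.19 ± 0.06, adjusted p = 0.0210), and its value in wild-type livers (-0.16 ± 0.07, adjusted p = 0.0940) missed it. Values that pass in 1 genotype only are not shown to differ between genotypes; the interaction is tested below. Gla, Glb1, Naglu and Neu1, which remove galactose, N-acetylglucosamine or sialic acid, did not pass in either genotype. Their log2 fold changes ran between -0.10 (Neu1) and 0.23 (Glb1) in knockout livers, and between -0.09 (Neu1) and 0.15 (Glb1) in wild-type livers. Glb1 shares 6172 bases with Tmppe on the same strand, so its counts are uncertain.

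The 4 genes of lipid breakdown and transport changed little. Npc2, which hands cholesterol out of the lysosome, had 51.6, 51.1, 56.8, 56.6 and 61.8 CPM in knockout livers on HFD, against 43.6, 50.8, 40.4 and 41.2 CPM on chow. It had 49.9, 65.6, 55.3 and 61.4 CPM in wild-type livers on HFD, against 40.9, 38.8 and 43.5 CPM on chow. Npc2 was higher without overlap in both genotypes, with a log2 fold change of 0.34 ± 0.09 in knockout livers (adjusted p = 0.00763) and 0.50 ± 0.10 in wild-type livers (adjusted p = 0.00143). Lipa, the acid lipase that hydrolyses cholesteryl esters and triglycerides, had 188, 301, 314, 292 and 298 CPM in knockout livers on HFD, against 289.9, 275, 265 and 265 CPM on chow. Its values in wild-type livers were 272, 305, 298 and 318 CPM on HFD, against 258, 287 and 248 CPM on chow. In knockout livers 4 HFD libraries lay above all chow libraries and 1 lay far below them, in wild-type livers the diets overlapped, and the log2 fold change was 0.02 ± 0.11 in knockout livers and 0.17 ± 0.13 in wild-type livers (adjusted p = 0.895 and 0.328). Smpd1, acid sphingomyelinase, was higher in knockout livers (0.22 ± 0.07, adjusted p = 0.0288) and had 0.05 ± 0.08 in wild-type livers. Psap, the precursor of the saposins that assist sphingolipid hydrolases, had -0.15 ± 0.09 in knockout livers and 0.15 ± 0.11 in wild-type livers (adjusted p = 0.231 and 0.312).

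Membrane proteins held the largest rises after that of Ctsk. Cd68 (chr11:69664213-69666153, minus strand), a heavily glycosylated protein of macrophage lysosomes, had 15.9, 10.9, 14.2, 10.9 and 12.5 CPM in knockout livers on HFD, against 4.89, 4.52, 6.16 and 6.71 CPM on chow. In wild-type livers Cd68 had 10.4, 17.01, 13.1 and 16.4 CPM on HFD, against 5.79, 3.03 and 3.61 CPM on chow. The lowest HFD library exceeded the highest chow library, and the log2 fold change was 1.21 ± 0.19 in knockout livers (adjusted p = 0.00014, 2.31-fold) and 1.76 ± 0.23 in wild-type livers (adjusted p = 2.54e-05, 3.40-fold). Laptm5 (chr4:130913125-130936141), a lysosomal transmembrane protein of blood-derived cells, had 33.4, 23.5, 28.8, 29.6 and 27.4 CPM in knockout livers on HFD, against 13.96, 16.6, 17.5 and 15.4 CPM on chow. Wild-type livers had 23.3, 40.8, 28.2 and 38.4 CPM on HFD, against 14.8, 9.32 and 11.2 CPM on chow. Again the diets did not overlap, with a log2 fold change of 0.85 ± 0.16 in knockout livers (adjusted p = 0.000637) and 1.47 ± 0.19 in wild-type livers (adjusted p = 2.55e-05).

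The paired glycoproteins Lamp1 and Lamp2 went in opposite directions. Lamp1 (chr8:13159161-13175338) had 812, 824, 888, 868 and 848 CPM in knockout livers on HFD, against 718, 684, 690.1 and 716 CPM on chow. It had 796, 834, 845 and 844 CPM in wild-type livers on HFD, against 688, 659 and 706 CPM on chow. Lamp1 was higher in every HFD library than in every chow library, with a log2 fold change of 0.27 ± 0.06 in knockout livers (adjusted p = 0.00189) and 0.28 ± 0.07 in wild-type livers (adjusted p = 0.00486). Lamp2, which also serves chaperone-mediated autophagy, had 382, 398, 372, 329 and 375 CPM in knockout livers on HFD, against 424, 499, 429 and 435 CPM on chow. It had 383, 330.2, 357 and 361 CPM in wild-type livers on HFD, against 422, 439 and 431 CPM on chow. Lamp2 was lower in every HFD library than in every chow library, at -0.27 ± 0.07 in knockout livers (adjusted p = 0.00840) and -0.27 ± 0.08 in wild-type livers (adjusted p = 0.0209) on the log2 scale. The wild-type call of Lamp2 was lost without library 2 of the HFD wild-type livers (adjusted p = 0.0664) or without library 2 or 3 of the chow wild-type livers (0.0672 and 0.0533). Mcoln1, a calcium channel of the lysosomal membrane, had 0.13 ± 0.08 in knockout livers and -0.02 ± 0.09 in wild-type livers, and neither passed. Cln3, a membrane protein of lysosomes, had 0.20 ± 0.15 and -0.03 ± 0.17 in knockout and wild-type livers, and its counts are uncertain because it overlaps Apobr on the opposite strand.

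Tfeb and the 2 pump genes did not pass in either genotype. Tfeb (chr17:47737030-47792419) had 4.17, 5.07, 6.92, 3.45 and 6.15 CPM in knockout livers on HFD, against 3.42, 3.66, 6.51 and 2.25 CPM on chow. It had 5.54, 5.32, 3.54 and 4.46 CPM in wild-type livers on HFD, against 3.48, 4.02 and 7.04 CPM on chow. In 3 of the 4 groups Tfeb had the widest spread of the 34, the diets overlapped, and the log2 fold change was 0.41 ± 0.28 in knockout livers (adjusted p = 0.279) and -0.03 ± 0.32 in wild-type livers (adjusted p = 0.957). Leaving out library 3 of the chow wild-type livers turned the wild-type value to 0.34 (adjusted p = 0.514), and leaving out library 3 of the chow knockout livers raised the knockout value to 0.73 (adjusted p = 0.0492). Atp6v0d1, a subunit of the membrane sector of the pump, had 0.01 ± 0.06 in knockout livers and -0.05 ± 0.07 in wild-type livers. Atp6ap1, an accessory pump protein, had 0.10 ± 0.08 and 0.13 ± 0.09.

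**Figure D2:**
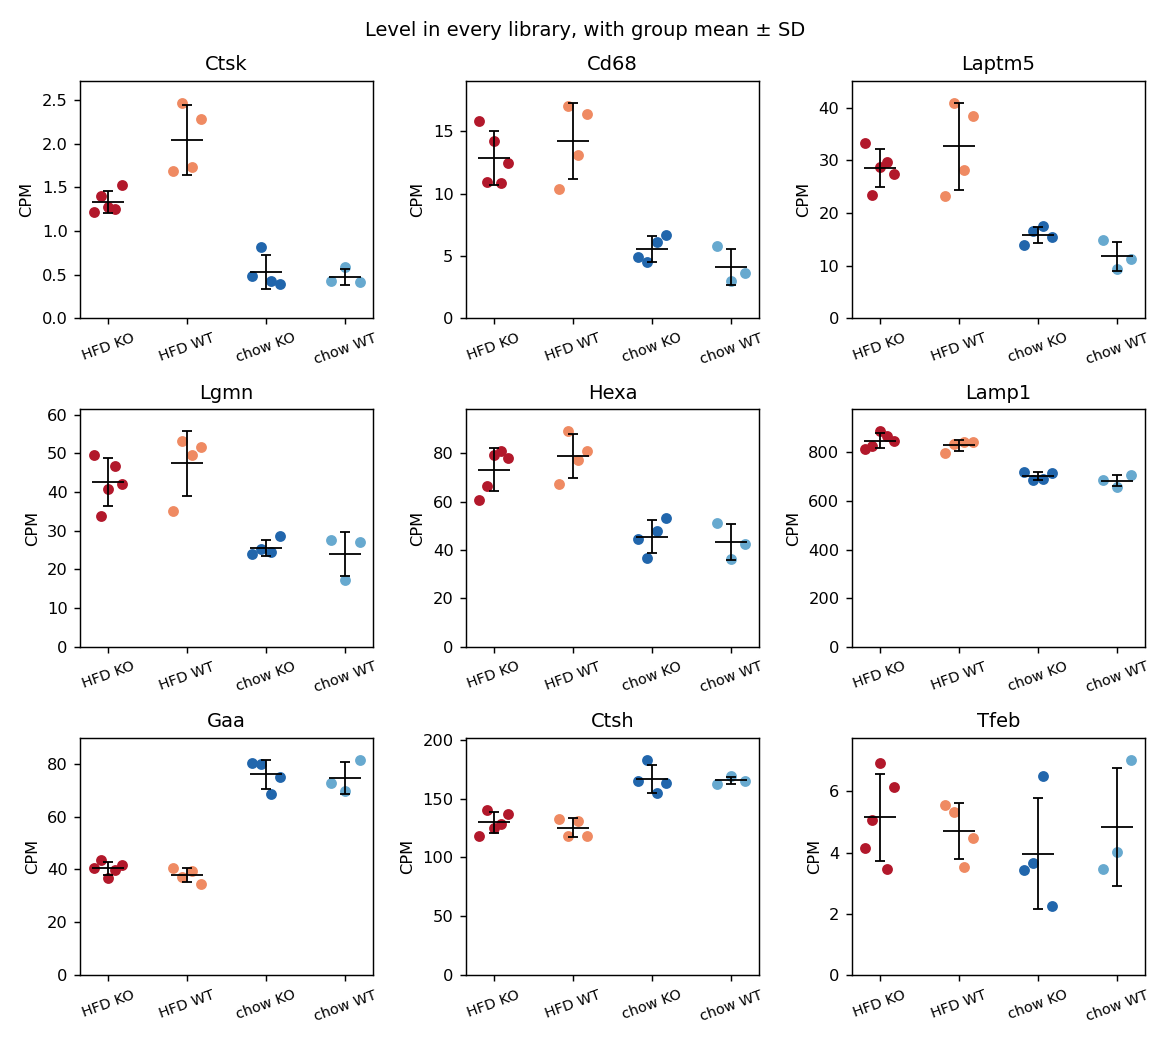
Level in CPM (y axis, from 0) of 9 genes in every library, for knockout and wild-type livers on HFD and knockout and wild-type livers on chow; bars give the mean ± SD of 5, 4, 4 and 3 libraries. HFD libraries lie above chow libraries for Ctsk, Cd68, Laptm5, Lgmn, Hexa and Lamp1, below them for Gaa and Ctsh, and overlap them for Tfeb.

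In knockout livers 2 of the 10 members with GTCACGTG in a promoter window were higher and 0 lower on HFD, with a median log2 fold change of 0.16, against 9 higher and 4 lower of the 22 members without it, with a median of 0.17. In wild-type livers 2 of 10 were higher and 0 lower with a median of 0.09, against 6 higher and 3 lower of 22 with a median of 0.14. The motif stood in the Lamp1 and Lgmn windows printed above and in none of those of Ctsk, Cd68 and Laptm5. Of all genes tested, 17.4% were higher and 16.2% lower in knockout livers, and 15.2% higher and 14.2% lower in wild-type livers. Whether the members with and without the motif differ was not tested.

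Around these 34 genes, 6 further lists of the pathway held 124 genes, of which 122 were tested. On HFD, 30 of 122 were higher and 20 lower in knockout livers, and 30 higher and 22 lower in wild-type livers. Of 35 other hydrolases and cofactors 11 (31.4%) were higher and 6 lower in knockout livers, with a median log2 fold change of 0.12, and 10 (28.6%) higher and 7 lower in wild-type livers, with a median of 0.07. Over all genes 17.4% were higher and 16.2% lower in knockout livers and 15.2% and 14.2% in wild-type livers, and the list counts given here and next come with no test against them. Ctss, a cysteine protease of antigen-presenting cells, had a log2 fold change of 1.14 ± 0.16 in knockout livers and 1.86 ± 0.19 in wild-type livers. Ppt1, a palmitoyl-protein thioesterase, had 0.60 ± 0.13 in knockout livers and 0.70 ± 0.15 in wild-type livers. Lower were Hyal1, a hyaluronidase (-0.70 ± 0.15 and -1.05 ± 0.17 in knockout and wild-type livers), and Hgsnat, an acetyltransferase of heparan sulfate breakdown (-0.37 ± 0.06 and -0.44 ± 0.07).

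Of 16 other proton pump subunits 7 (43.8%) were higher and 0 lower in knockout livers, with a median log2 fold change of 0.20, and 9 (56.3%) higher and 0 lower in wild-type livers, with a median of 0.24, although neither pump gene among the members passed. Atp6v0d2, an isoform of Atp6v0d1 known from osteoclasts and macrophages, had a log2 fold change of 1.06 ± 0.33 in knockout livers and 1.56 ± 0.38 in wild-type livers. Atp6v1d, of the cytosolic sector, had 0.38 ± 0.08 and 0.37 ± 0.09. Of 17 autophagy genes 0 were higher and 8 (47.1%) lower in knockout livers, with a median of -0.20, and 0 higher and 6 (35.3%) lower in wild-type livers, with a median of -0.16. Map1lc3a, an autophagosome membrane protein, had -0.90 ± 0.11 and -0.84 ± 0.13, Atg16l1, which helps attach lipid to such proteins, had -0.65 ± 0.13 and -0.48 ± 0.15, and Wipi2, which recruits it, had -0.39 ± 0.06 and -0.44 ± 0.07, in knockout and wild-type livers.

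Of 21 other membrane proteins, 6 were higher and 2 lower in knockout livers and 5 higher and 4 lower in wild-type livers. Cd63, a tetraspanin, had 2.57 ± 0.46 and 3.05 ± 0.53 in knockout and wild-type livers, Scarb2, the receptor that delivers glucocerebrosidase, -0.55 ± 0.08 and -0.57 ± 0.09, and Sidt2 -0.36 ± 0.07 and -0.60 ± 0.08. Enzyme delivery and fusion genes numbered 2 higher and 2 lower of 15 in knockout livers and 2 higher and 3 lower in wild-type livers. Among them the sorting adaptor Gga2 had 0.91 ± 0.11 and 0.71 ± 0.12, and the sorting receptor Sort1 -1.06 ± 0.28 and -1.18 ± 0.31. Of 18 genes of Tfeb-related factors and nutrient sensing, 4 were higher and 2 lower in each genotype. Rragd, a Rag GTPase, had 1.20 ± 0.33 and 1.42 ± 0.38, and Zkscan3, a repressor of lysosomal genes in human cells, -0.44 ± 0.10 and -0.79 ± 0.12. Tfec, a relative of Tfeb, had 0.46 ± 0.26 in knockout livers (adjusted p = 0.180) and 1.06 ± 0.29 in wild-type livers (adjusted p = 0.0101), and its interaction did not pass (adjusted p = 0.839).

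Markers of other liver cells moved with diet too. Of 16 Kupffer cell and macrophage markers, none of them a member, 9 were higher and 0 lower on HFD in knockout livers, with a median log2 fold change of 0.73. In wild-type livers 12 were higher and 0 lower, with a median of 1.39. Their summed level was 521 to 946 CPM in knockout livers on HFD and 558 to 996 CPM in wild-type livers on HFD, against 373 to 425 CPM in knockout livers on chow and 225 to 405 CPM in wild-type livers on chow, and no marker was at 0 in any library. Of 9 markers of lipid-associated macrophages 8 were higher in each genotype, with sums of 166 to 255 CPM in knockout and 192 to 376 CPM in wild-type livers on HFD, against 46.1 to 59.02 CPM in knockout and 44.9 to 64.5 CPM in wild-type livers on chow. Of 8 stellate cell markers 6 were higher in knockout and 7 in wild-type livers, and of 11 hepatocyte markers 6 were lower in knockout and 9 in wild-type livers. Of 8 sinusoidal endothelial markers 0 were higher and 2 lower in knockout livers, and 4 higher and 0 lower in wild-type livers. Of 4 neutrophil markers tested 1, Mmp8, was higher in knockout livers, and 3, S100a8, S100a9 and Mmp8, were higher in wild-type livers. The summed level of 5 neutrophil markers was low, at 2.34 to 4.59 CPM in knockout and 2.95 to 7.92 CPM in wild-type livers on HFD, against 0.708 to 2.83 CPM in knockout and 0.376 to 0.71 CPM in wild-type livers on chow, and Retnlg, Mmp8 and Ngp were at 0 in at least 1 library. S100a8, a calcium-binding protein of neutrophils, had a log2 fold change of 0.98 ± 0.41 in knockout livers (adjusted p = 0.0699) and 3.94 ± 0.57 in wild-type livers (adjusted p = 6.95e-05). Of 6 T and NK cell markers 0 were higher in knockout and 1 in wild-type livers, of 5 B and plasma cell markers 0 in both, and of 5 cholangiocyte markers 1 in each genotype, with 0 lower in any of these lists. In whole-liver RNA more cells of a type and more RNA per cell cannot be told apart, and the part of these markers in the members' diet changes was not tested.

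The members were next set against the macrophage marker level, the mean log2 CPM of those 16 markers, across the 9 HFD libraries and across the 7 chow libraries, in 68 relations of which none passed after Benjamini-Hochberg adjustment. On HFD, the marker level was highest in library 1 of the knockout livers (5.02) and library 2 of the wild-type livers (4.998), and the others lay between 3.98 and 4.42. Cd68 had r = 0.79 (exact permutation p = 0.00544, adjusted 0.123) and rho = 0.77 (p = 0.0214, exact permutation), and r = 0.77 without the 2 libraries farthest from the median. Laptm5 had r = 0.78 (exact permutation p = 0.0188, adjusted 0.193) and rho = 0.78 (p = 0.0172, exact permutation), with r = 0.85 without those libraries. Lgmn had r = 0.70 (exact permutation p = 0.0345, adjusted 0.261) and rho = 0.90 (exact permutation p = 0.00203, adjusted 0.138), with r = 0.80 without them. Ctsh went against it, at r = -0.79 (exact permutation p = 0.00722, adjusted 0.123) and rho = -0.75 (p = 0.0255, exact permutation), and r = -0.68 without them. These values changed little when both measures were centred within genotype, to 0.78 for Cd68, 0.77 for Laptm5, 0.69 for Lgmn and -0.78 for Ctsh. Atp6v0d1 also went against the marker level, at r = -0.74 (exact permutation p = 0.0175, adjusted 0.193), and r = -0.78 without the 2 farthest libraries. Atp6ap1 had r = -0.77 (exact permutation p = 0.0243, adjusted 0.206), which turned to 0.59 without them. The median r of the 34 members was -0.04 on HFD, with 16 above 0, and -0.16 on chow, with 13 above 0.

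On chow, Laptm5 had r = 0.96 (exact permutation p = 0.00159, adjusted 0.108) and rho = 0.86 (p = 0.0238, exact permutation), and Cd68 r = 0.91 (exact permutation p = 0.00496, adjusted 0.123) and rho = 0.86 (p = 0.0238, exact permutation). Both rest partly on libraries 2 and 3 of the wild-type livers, which had the lowest marker levels (2.82 and 2.97, against 3.65 to 3.88 in the others): without them r was 0.75 for Laptm5 and 0.53 for Cd68. The relation of Psap, r = 0.79 (exact permutation p = 0.044, adjusted 0.300) and rho = 0.32 (p = 0.498, exact permutation), rested on those libraries and turned to -0.61 without them. Naglu went the other way, at r = -0.86 (exact permutation p = 0.0198, adjusted 0.193) and rho = -0.71 (p = 0.0881, exact permutation). Its r was -0.07 without those libraries. Lgmn had r = 0.61 (exact permutation p = 0.135) and rho = 0.46 (p = 0.302, exact permutation) on chow, and Ctsh r = -0.16 (exact permutation p = 0.666) and rho = -0.79 (p = 0.048, exact permutation; adjusted 0.380). Lamp1 had r = -0.29 (exact permutation p = 0.450) and rho = -0.07 (p = 0.880, exact permutation) on HFD. Lipa had r = -0.55 (exact permutation p = 0.164) and rho = -0.03 (p = 0.948, exact permutation) on HFD, and r = 0.42 without the 2 farthest libraries.

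**Figure D3:**
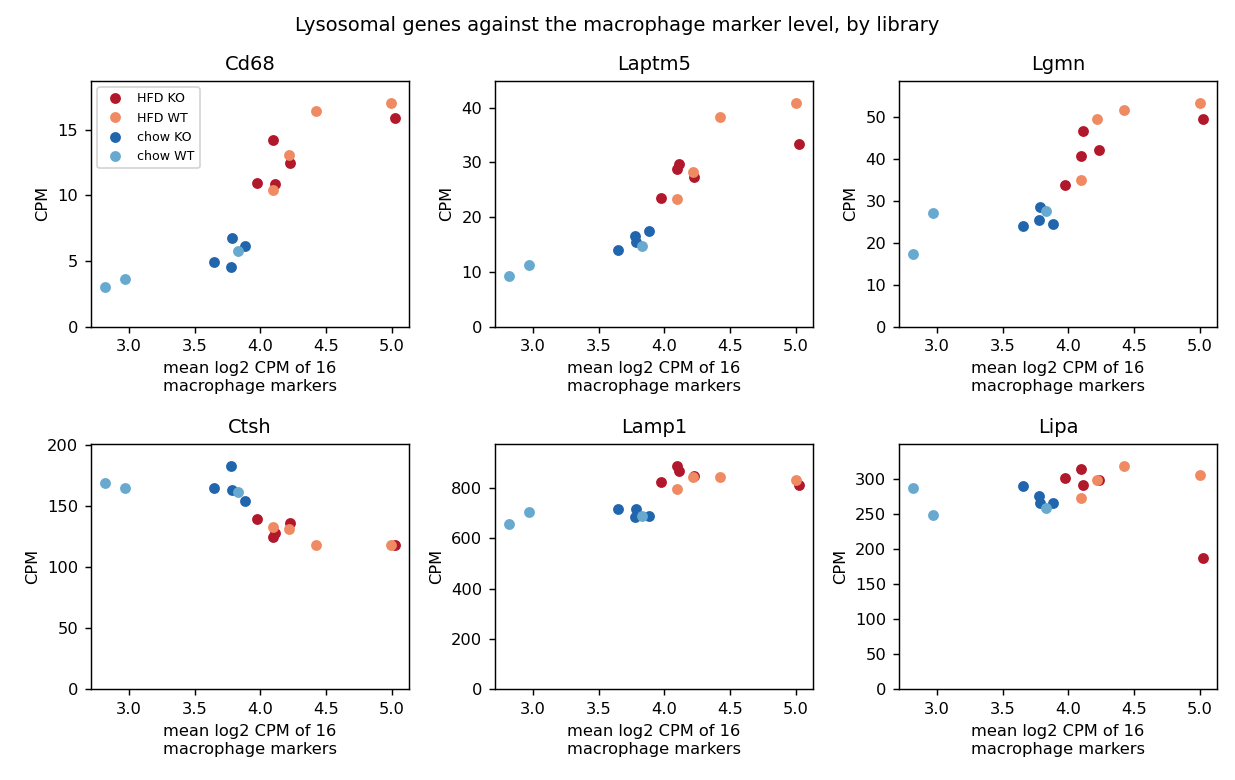
Level in CPM (y axis, from 0) of 6 genes against the mean log2 CPM of 16 macrophage markers (x axis), 1 point per library. All HFD libraries lie at higher marker levels than all chow libraries, so points of both diets together also show the diet difference, and none of the 68 relations within a diet passed after adjustment. The HFD knockout library at a marker level of 5.02 has the lowest Lipa.

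Knockout was compared with wild type within each diet, which asks whether the liver knockout of miR-33 shifts the lysosomal genes. By edgeR's quasi-likelihood test no member passed on either diet. On HFD 0 of 34 were higher and 0 lower, where 0.00594% of all genes were higher and 0 lower. The members' median log2 fold change was -0.04 (all genes 0.00), with 12 above and 22 below 0, and 0.0025 without library 1 of the knockout livers. At an unadjusted p under 0.05 there was 1 member, Ctsk, and 641 of all genes (3.81%). On chow 0 of 34 were higher and 0 lower, where 0.00594% of all genes were higher and 0 lower. The median was 0.02 (all genes 0.00), with 18 above and 16 below 0, and 2 members, Psap and Laptm5, and 1001 of all genes (5.95%) had an unadjusted p under 0.05. DESeq2 called no member on either diet, while 6 of all genes were higher and 2 lower on HFD, and 2 higher and 0 lower on chow.

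Ctsk had 1.22, 1.40, 1.27, 1.26 and 1.52 CPM in knockout livers on HFD, against 1.68, 2.47, 1.73 and 2.29 CPM in wild-type livers on HFD. All 5 knockout libraries were below all 4 wild-type libraries. The log2 fold change was -0.61 ± 0.21 (adjusted p = 1.0, edgeR's quasi-likelihood test), so this gap did not hold up against the number of genes tested. On chow the Ctsk value was 0.20 ± 0.33. Ctsz, the carboxypeptidase, had 170.5, 165, 195, 211 and 205 CPM in knockout livers on HFD, against 176, 241, 207 and 211 CPM in wild-type livers on HFD, with overlap and a log2 fold change of -0.14 ± 0.10 (adjusted p = 1.0, edgeR). That value was -0.0655 without library 2 of the HFD wild-type livers and -0.216 without library 1. Psap had 417, 432, 385 and 389 CPM in knockout livers on chow, against 374, 339 and 292 CPM in wild-type livers on chow. The 4 knockout libraries lay above the 3 wild-type libraries, with a log2 fold change of 0.28 ± 0.11 (adjusted p = 0.773, edgeR), and on HFD the value was -0.02 ± 0.09. Laptm5 had 13.96, 16.6, 17.5 and 15.4 CPM in knockout livers on chow, against 14.8, 9.32 and 11.2 CPM in wild-type livers on chow. These groups overlapped, with a log2 fold change of 0.42 ± 0.19 on chow (adjusted p = 0.827, edgeR) and -0.20 ± 0.15 on HFD. Without library 2 of the wild-type livers of the same diet these became 0.28 on chow and -0.0681 on HFD, and without library 1 they became 0.63 and -0.33. The macrophage markers had a median log2 fold change of 0.54 on chow and -0.14 on HFD between the same groups, none of the 16 passing on either diet. The 4 tested neutrophil markers, none of which passed, were all above 0 on chow and all below 0 on HFD, with S100a8 at 1.87 ± 0.64 on chow and -1.08 ± 0.35 on HFD. The 8 sinusoidal endothelial markers had a median of 0.28 on chow and -0.28 on HFD, and the 8 stellate cell markers 0.26 and -0.25, none passing. Not every list changed sign. Medians on chow and HFD were 0.71 and 0.37 for 5 B and plasma cell markers and -0.19 and -0.66 for 5 cholangiocyte markers. They were 0.56 and 0.01 for 6 T and NK cell markers and 0.095 and -0.32 for 9 lipid-associated macrophage markers. None of these markers passed. The 11 hepatocyte markers had -0.03 and 0.07. The part of these markers in the Laptm5 values was not tested. Naglu had 23.3, 20.03, 22.8 and 23.4 CPM in knockout livers on chow, against 23.1, 27.6 and 27.04 CPM in wild-type livers on chow, with a log2 fold change of -0.21 ± 0.12 (adjusted p = 0.875, edgeR).

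Lamp1 differed by 0.03 ± 0.06 on HFD and 0.04 ± 0.07 on chow, and Lamp2 by 0.05 ± 0.07 and 0.05 ± 0.08, knockout over wild type on the log2 scale. Tfeb had 0.13 ± 0.27 on HFD and -0.31 ± 0.33 on chow, with wide errors. Lipa had -0.10 ± 0.11 on HFD and 0.05 ± 0.13 on chow, and its HFD value became 0.02 without library 1 of the knockout livers. Ctsc, with the seed site in an alternative transcript, had 0.08 ± 0.10 on HFD and -0.05 ± 0.12 on chow for the whole gene. A missed threshold does not show equality, so the intervals matter: the log2 fold change ± 2 SE stayed within 1.5-fold either way for 32 of 34 members on HFD, all but Tfeb and Ctsk, and for 30 of 34 on chow, all but Ctsk, Cd68, Laptm5 and Tfeb. None of the 122 other lysosomal and autophagy genes passed on either diet.

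**Figure D4:**
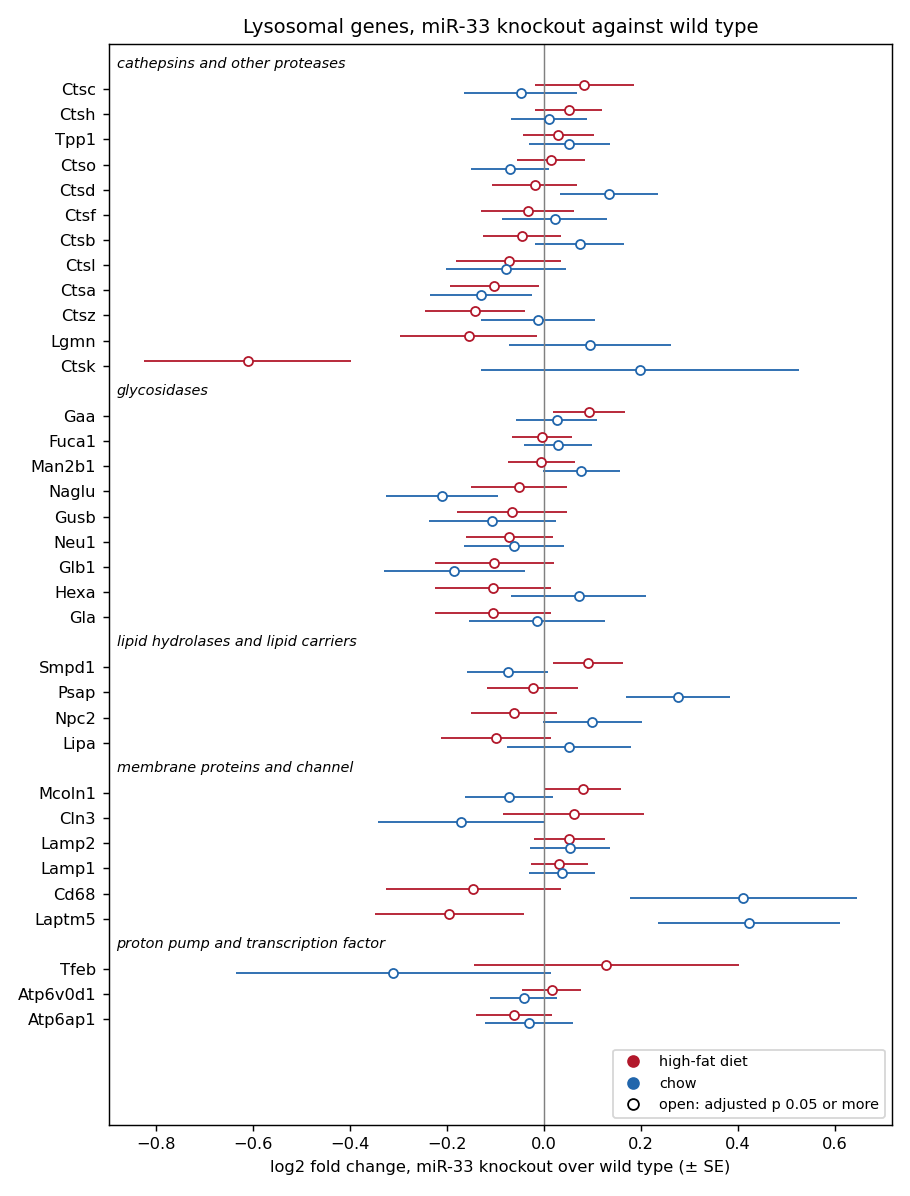
Log2 fold change of each of the 34 genes, knockout over wild type, with its standard error, on HFD (red, upper point) and chow (blue, lower point), grouped by role. All points are open, so no gene passed an adjusted p of 0.05, and most lie within 0.2 of 0; Ctsk on HFD lies farthest left at -0.61.

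The difference between the knockout effects on HFD and on chow, which is also the difference between the diet effects in knockout and wild-type livers, was tested as an interaction. By edgeR's quasi-likelihood test 0 of 34 members passed in either direction, where 0 of all 16830 genes passed, and 2 members, Laptm5 and Psap, and 1110 of all genes (6.60%) had an unadjusted p under 0.05. DESeq2 called no member and 2 of all genes. Laptm5 had -0.62 ± 0.24 on the log2 scale (adjusted p = 0.693, edgeR), Psap -0.30 ± 0.14 (adjusted p = 0.753, edgeR) and Ctsk -0.81 ± 0.39 (adjusted p = 0.753, edgeR). The Ctsk value was -0.50 without library 2 of the chow knockout livers. The diet effect on these genes was thus smaller, or more negative, in knockout than in wild-type livers by a margin that did not pass. The 16 macrophage markers, none of which passed, had a median interaction of -0.71. All 4 tested neutrophil markers were below 0, among them S100a8 at -2.96 ± 0.73 (adjusted p = 0.440, edgeR) and S100a9 at -2.45 ± 0.78 (adjusted p = 0.664, edgeR). So were all 8 sinusoidal endothelial markers, with a median of -0.74, and all 8 stellate cell markers, with a median of -0.46, none passing. Medians were -0.52 for 9 lipid-associated macrophage markers, with 2 above 0, and -0.44 for 6 T and NK cell markers, with 2 above 0. They were -0.46 for 5 B and plasma cell markers, with 2 above 0, and -0.47 for 5 cholangiocyte markers, with 1 above 0. The 11 hepatocyte markers had a median of 0.06. The part of these markers in the Laptm5 and Ctsk values was not tested. Tfeb had 0.44 ± 0.42, Lamp1 -0.01 ± 0.09, Lamp2 -0.00 ± 0.11 and Lipa -0.15 ± 0.17. The estimate ± 2 SE stayed within 1.5-fold for 28 of 34 members, and the other 6 were Ctsk, Laptm5, Cd68, Lgmn, Cln3 and Tfeb.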

How the data were processed

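The name of the deposited table says both gene counts and FPKM, and no header gives the unit. The deposited values were taken as estimated counts per gene, not scaled to library size or gene length, since totals were unequal between libraries, 32.8% to 37.9% of a library's values were whole (tolerance 0), and the smallest row total was 10. The levels in CPM and per kb rest on that reading, which was not checked against read totals. Per the labels' protocols, ribosomal RNA was depleted with Ribo-Zero and trimmed reads went through TopHat2 alignment and Cuffdiff quantification. The genome was mm10 per the submitters' processing notes. A small RNA library kit is named beside 75-base reads, which was not reconciled. Tool versions and the counting strand: not given in the sources used here. Each end coordinate lay 1 base past the annotated end and was corrected. With that, 33 of 34 members had the limits of GENCODE M21.

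Estimated counts were rounded, filtered with filterByExpr, TMM-scaled and fitted with edgeR 4.0.16 (robust quasi-likelihood, 1 mean per diet and genotype group over all 16 libraries, 12 residual degrees of freedom, no covariates). Two-sided p-values were adjusted by Benjamini-Hochberg over the 16830 genes, with a threshold of 0.05. A standard error is the log2 fold change over the square root of F. CPM uses TMM-scaled totals, and log2 CPM a prior count of 2. The fit was tested on simulated counts. Alternatives were DESeq2 1.42.0, its size factors, no filter, a stricter filter of 1 CPM, only the groups compared, and each library left out. Leaving out both libraries that stood apart was chosen after seeing the data. Members and lists were chosen with earlier results of these data known. Named in full are the 8 most positive and 3 most negative passing members of the wild-type diet comparison, the 3 smallest p of each knockout comparison and the interaction, and always Tfeb, Lamp1, Lamp2, Lipa and, for diet, Ctsb, Ctsd and Ctsl; of each other list, up to 3 genes each way, some of which are not reported here.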

Additional observations from a re-analysis of the deposited data

Results flagged for a closer look

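In 102 tests of a single library against the rest of its group, 3 values, from 2 libraries, stood far from the rest of their group, and chance flags about 1 in 20 such groups. Lipa was 187.6 CPM in library 1 of the knockout livers on HFD, against 291.8 to 314.4 CPM in the other 4. Atp6ap1 was 56.1 CPM in the same library, against 68.6 to 73.5 CPM in the other 4. That library also had the highest macrophage marker level of all 16 (5.02). Lamp2 was 499.4 CPM in library 2 of the knockout livers on chow, against 424.4 to 435.3 CPM in the other 3. Wild-type livers on chow, with 3 libraries, were not tested in this way.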

How the results depend on the processing

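In 322 recomputations of the counts of members that passed and of the medians, every count stayed within 1.5 times its value and every median moved by less than the SD between replicate libraries. With single libraries left out, the members' median ran from 0.0790 (without library 1 of the chow wild-type livers) to 0.159 for diet in wild-type livers and from 0.132 to 0.197 in knockout livers. The medians near 0 changed sign, running from -0.0749 to 0.0025 for knockout on HFD, -0.0065 to 0.0543 for knockout on chow and -0.0686 to 0.0184 for the interaction. With single libraries left out, 10 to 13 members were higher and 4 to 5 lower on HFD in knockout livers, 9 to 11 higher and 3 to 4 lower in wild-type livers, and 0 passed in the knockout comparisons and the interaction. Signs of single genes changed only for values that passed no test. Without single libraries the log2 fold changes ran from -0.23 to 0.34 for Tfeb and -0.13 to 0.12 for Ctsl (diet, wild type), -0.0229 to 0.157 for Lipa and -0.0603 to 0.108 for Ctsl (diet, knockout), -0.146 to 0.0152 for Lipa and -0.0027 to 0.243 for Tfeb (knockout on HFD), -0.0038 to 0.0779 for Lamp2 and -0.633 to 0.0549 for Tfeb (knockout on chow), and -0.0284 to 0.0210 for Lamp1 and -0.0378 to 0.0557 for Lamp2 (interaction). Without library 1 of the HFD knockout livers and library 3 of the chow wild-type livers together, Tfeb became 0.35 (diet, wild type) and 0.05 (knockout on chow) and Lipa 0.0160 (knockout on HFD) and 0.0126 (interaction). The wild-type diet call of Lamp2 was then lost (adjusted p = 0.0600, edgeR), and Ctsd passed (adjusted p = 0.0483, edgeR). Ctsd also passed under the stricter filter (adjusted p = 0.0482, edgeR) and without single libraries, as given above. With no filter the Lamp2 interaction was 0.0012. The correlation of Psap with the macrophage marker level on chow turned to -0.61 without the 2 farthest libraries. The cause of these changes was not tested. No paired analysis was possible because the labels give the groups no shared replicate numbers. Depth limits Ctsk most among the members, given its few reads.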
